A study of Mus musculus with 10 samples.

Results

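Chemoattractant receptors are the G protein-coupled receptors through which a neutrophil senses bacterial peptides, complement fragments, lipid mediators and chemokines and turns that sensing into directed movement. Receptors for formyl peptides, C5a, leukotriene B4 and platelet-activating factor guide cells at sites of infection, while Cxcr2 and Cxcr4 work against each other in the marrow, the former favouring release into blood and the latter retention. The 10 genes listed for description were the formyl peptide receptor genes Fpr1 and Fpr2, the chemokine receptor genes Cxcr2, Cxcr4 and Ccr1, the complement receptor genes C5ar1 and C3ar1, the lipid receptor genes Ltb4r1 and Ptafr, and the atypical receptor gene Ccrl2. The members were chosen by name, and every probe set that the array annotation assigns to one of these genes alone was taken. Of the 10 listed genes, 8 had such a probe set, 1 each, out of 19938 genes in all, and all 8 passed the signal filter that left 14070 genes for testing. No probe set used here names Fpr1 or Fpr2, so the receptors that bind fMLP itself were not analysed here.

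RNA came from neutrophils that had been enriched on a Percoll gradient from bone marrow of C57bl/6 mice, labelled female and 10 weeks old. Of the 4 groups, the first was unstimulated wild type cells (3 arrays), and the second was unstimulated cells of the lcn2 knockout, which lacks the granule protein lipocalin 2 (3 arrays). The other 2 groups were wild type and knockout cells (2 arrays each) exposed to 10 micromolar fMLP for 20 minutes at 37 degrees Celsius. This formylated peptide is of the kind bacteria release. The labels give no incubation of the unstimulated cells, so incubation and fMLP cannot be told apart. They also do not say whether replicates were separate animals, so the p-values measure the spread between these samples, which may be technical. The series asks about the role of lipocalin 2 in neutrophils, with and without fMLP. All values are RMA signals of Affymetrix arrays, a background-corrected and normalised probe set summary taken as log2, so that a difference is a log2 fold change. A level is comparable between arrays for the same gene, but not between genes.

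Several arrays stood apart, and this bears on every result with fMLP. The spread of values was narrower on unstimulated replicates 1 and 2 of both genotypes (array set 1, interquartile range 1.64 to 1.68) than on unstimulated replicate 3 and all fMLP arrays (array set 2, 2.47 to 2.59). The fMLP arrays were therefore set against unstimulated replicate 3 first, by a limma fit of all 10 arrays with the array set as a term. Replicate 2 of the fMLP knockout cells carried neuronal RNA signals, with the synaptic gene Snap25 at 13.43 against 7.36 to 8.78 elsewhere, and the fMLP difference of each receptor is given with and without it. Despite the label female, the Y-linked gene Eif2s3y stood at 9.83 and 9.59 on unstimulated replicate 3 of wild type and knockout against 5.36 to 7.22 on the other arrays. Xist, the RNA of the inactive X chromosome, was at 6.88 to 7.82 on unstimulated arrays and at 9.83 to 11.12 after fMLP. Sex-linked signals thus changed along with the treatment, and the sources of a difference between fMLP and unstimulated arrays cannot be told apart. Lcn2 itself ran at 13.88 to 14.16 on the wild type arrays and at 8.09 to 9.60 on the knockout arrays, which matches the genotype labels. Among the neutrophil markers, 13 of 13 had a probe set, and S100a8, S100a9, Ngp and Retnlg were above 13 on every array.

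**Figure D1:**
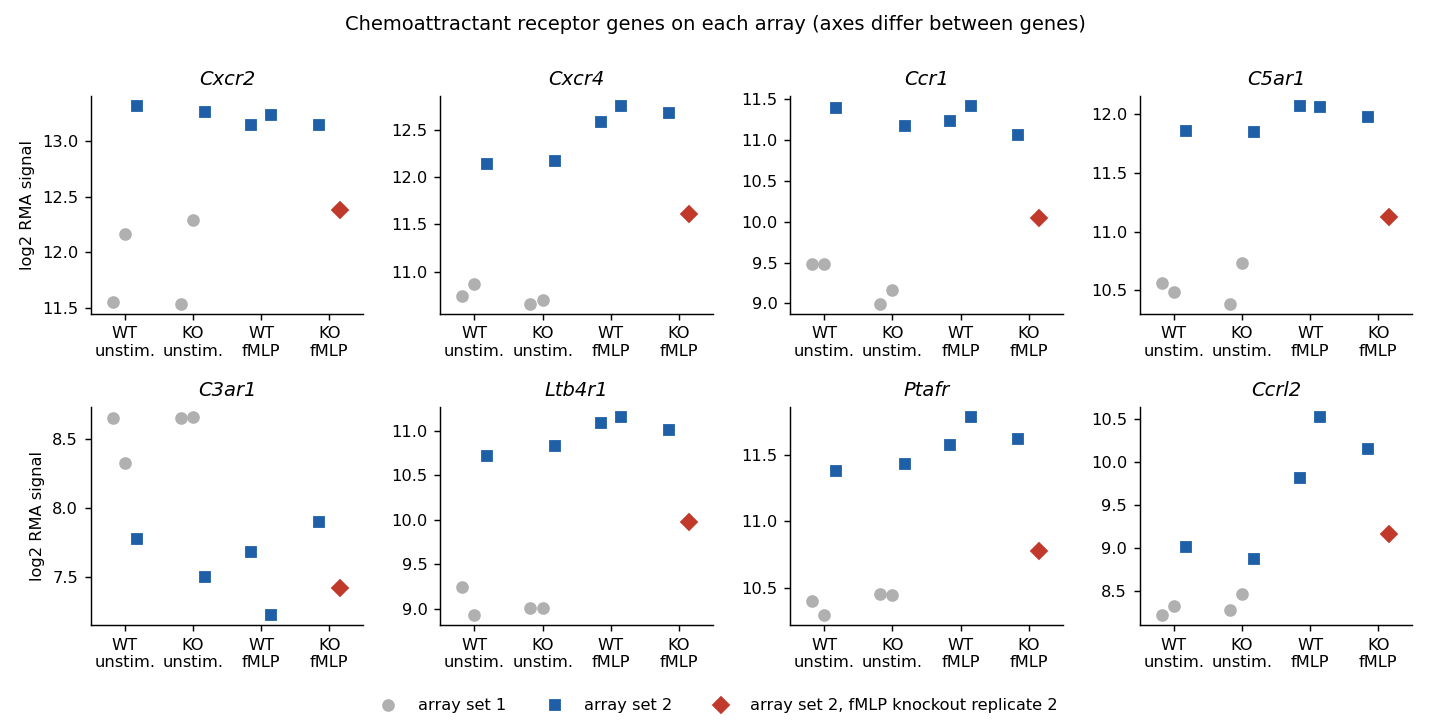
Log2 RMA signal of the 8 measured receptor genes (vertical axes, scaled per gene) on each of the 10 arrays by group; grey circles are array set 1, blue squares array set 2, and the red diamond fMLP knockout replicate 2. Ccrl2 lies at 9.16 to 10.53 on the 4 fMLP arrays and at 8.87 and 9.02 on both unstimulated set 2 arrays, while the red diamond is the lowest fMLP value of every gene but C3ar1.

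Ccrl2 showed the largest fMLP difference of the 8 receptors. It encodes an atypical receptor that binds the chemoattractant chemerin and does not signal as the classical receptors do. In wild type cells Ccrl2 stood at 9.02 on unstimulated replicate 3 and at 9.81 and 10.53 after fMLP. In knockout cells it stood at 8.87 on unstimulated replicate 3 and at 10.15 and 9.16 after fMLP. All 4 fMLP arrays lay above both unstimulated arrays of the set, a pattern that 11.9% of the tested genes showed in this direction. The averaged difference was 0.97 (SE 0.28, 1.96-fold, 95% confidence interval 0.32 to 1.62) and did not pass in limma (unadjusted p = 0.00873, adjusted p = 0.175). In this fit 0 of the 8 receptors were called, where 0.341% of all tested genes were called in either direction, 0.149% higher and 0.192% lower, with 1 receptor and 14.6% of all tested genes at an unadjusted p below 0.05 by limma. Without fMLP knockout replicate 2, Ccrl2 rose by 1.22 (SE 0.18, 2.32-fold, limma adjusted p = 0.00349).

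Cxcr4, the receptor for the marrow retention chemokine Cxcl12, was the other receptor whose call depended on that array. It stood at 12.14 on unstimulated replicate 3 of wild type cells and at 12.58 and 12.76 after fMLP. In knockout cells it stood at 12.17 before and at 12.68 and 11.61 after fMLP. Replicates of the fMLP knockout group thus lay on opposite sides of the unstimulated value, and over all 10 arrays the difference was 0.25 (SE 0.25, limma adjusted p = 0.687). With knockout replicate 2 left out, Cxcr4 rose by 0.52 (SE 0.10, 1.43-fold, limma adjusted p = 0.0114). In that fit 2 of the 8 receptors were called, both higher, where 10.1% of all tested genes were called in either direction, 6.36% higher and 3.79% lower. Leaving out fMLP knockout replicate 1 in its place gave Cxcr4 at -0.01 (limma adjusted p = 0.936). In that fit 28.8% of all tested genes and 2 receptors were called, with Ccrl2 higher by 0.72 (limma adjusted p = 0.013) and Ccr1 lower at -0.59 (limma adjusted p = 0.00206). Without both unstimulated replicate 3 arrays, the pair with Y-linked signal, the fMLP arrays can be compared with array set 1 only. All 8 receptors were then called by limma, as were 81.5% of all tested genes, with Ccrl2 at 1.59 and Cxcr4 at 1.66, and the array set and the treatment cannot be told apart.

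**Figure D2:**
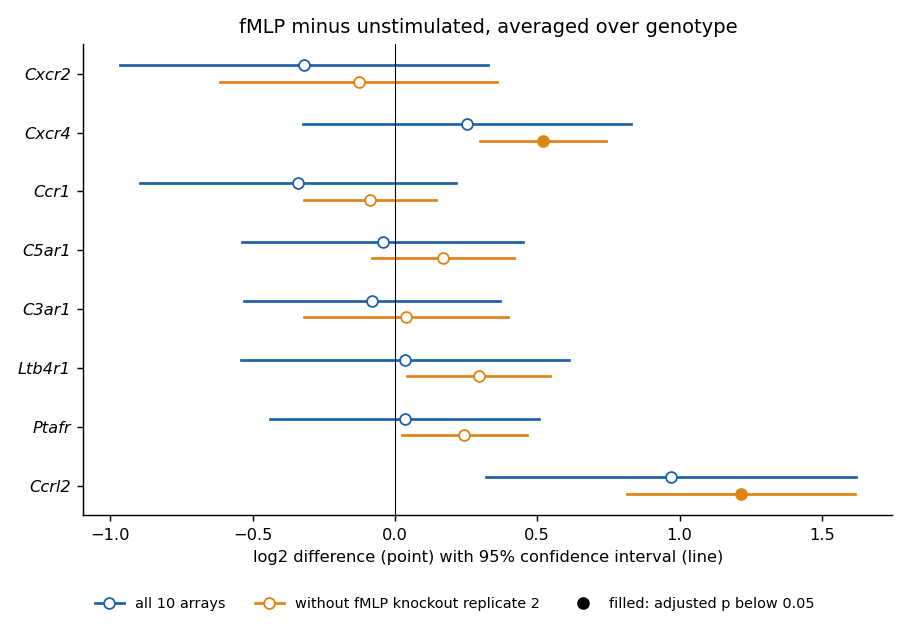
Log2 difference between fMLP and unstimulated arrays, averaged over genotype, for each receptor gene (points) with its 95% confidence interval (lines); blue uses all 10 arrays, orange leaves out fMLP knockout replicate 2, and filled points have an adjusted p below 0.05 by limma. Only the orange points of Ccrl2 (1.22) and Cxcr4 (0.52) are filled.

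The DNA just upstream of the transcription start is shown for Ccrl2 and Cxcr4, the receptors called without that array, and for C3ar1, whose run held matches to 3 of the motifs searched. Each run holds 250 bases before the start of a RefSeq transcript (GRCm38.p6), read 5′ to 3′ on the gene's strand. Capitals mark matches to one of 5 motifs searched on both strands: AP-1 (TGANTCA), the CRE half-site (TGACG), NF-kB (GGGNN followed directly by TTTCC), EGR (GCGTGGGCG) and the TATA box (TATAAA).
Ccrl2, chr9:111057519-111057768, minus strand: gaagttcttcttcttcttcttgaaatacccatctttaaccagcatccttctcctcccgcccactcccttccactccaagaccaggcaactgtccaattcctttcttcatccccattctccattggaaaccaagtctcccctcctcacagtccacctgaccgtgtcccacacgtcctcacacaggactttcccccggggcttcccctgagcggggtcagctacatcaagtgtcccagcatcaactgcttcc
Cxcr4, chr1:128592300-128592549, minus strand: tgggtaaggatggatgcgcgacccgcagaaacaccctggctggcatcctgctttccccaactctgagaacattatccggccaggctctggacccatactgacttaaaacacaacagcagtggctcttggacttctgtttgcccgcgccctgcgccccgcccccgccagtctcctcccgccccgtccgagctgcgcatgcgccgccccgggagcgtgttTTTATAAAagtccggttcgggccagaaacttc
C3ar1, chr6:122856158-122856407, minus strand: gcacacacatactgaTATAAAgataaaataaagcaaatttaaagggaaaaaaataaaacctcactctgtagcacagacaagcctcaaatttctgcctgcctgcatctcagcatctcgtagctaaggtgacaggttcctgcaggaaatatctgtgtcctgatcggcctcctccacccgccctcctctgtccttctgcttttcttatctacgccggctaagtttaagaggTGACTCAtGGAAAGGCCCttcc
The Ccrl2 run, before the most upstream of 3 annotated starts, holds none of the 5 motifs. A CRE half-site lies 218 bases before the second start and, being the same site, 244 bases before the third. The Cxcr4 run holds a TATA box beginning 30 bases before the start and an overlapping match on the other strand. The C3ar1 run holds an AP-1 match beginning 22 bases before the start, an NF-kB match beginning 14 bases before it with no overlap between them, and a TATA box match 235 bases before it. Among 32851 such windows, 6.75% hold the AP-1 motif, 17.8% the CRE half-site, 1.41% the NF-kB motif, 0.536% the EGR motif and 12.4% the TATA box. Of the 8 measured receptors, 1 had an AP-1, 1 a CRE half-site, 1 an NF-kB, 0 an EGR and 2 a TATA match. These matches describe the letters only.

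The receptors for the lipid mediators and for C5a had small differences that did not pass over all arrays. Ltb4r1, the high-affinity receptor for leukotriene B4, stood at 10.71 and 10.83 before fMLP within set 2. After fMLP it stood at 11.09 and 11.16 in wild type and at 11.01 and 9.97 in knockout cells. Ptafr, the receptor for platelet-activating factor, stood at 11.38 and 11.43 before, and at 11.57, 11.78, 11.62 and 10.78 after fMLP. C5ar1, through which the complement fragment C5a acts, stood at 11.85 and 11.85 before, and at 12.07, 12.06, 11.97 and 11.13 after. For each of these 3 genes the first 3 fMLP arrays lay above both unstimulated arrays and the fourth, knockout replicate 2, lay below them. The differences over all arrays were 0.03 for Ltb4r1, 0.03 for Ptafr and -0.04 for C5ar1 (limma adjusted p = 0.961, 0.953 and 0.943). Without knockout replicate 2 they were 0.29 (95% confidence interval 0.04 to 0.55), 0.24 (0.02 to 0.46) and 0.17 (-0.08 to 0.42), with limma adjusted p = 0.139, 0.158 and 0.409. In array set 2 alone without that array, a setting chosen after seeing the data, the Ltb4r1 difference was also 0.29. Every group but wild type with fMLP then holds a lone array, so the spread comes from the wild type fMLP arrays. Together with Ccrl2 and Cxcr4, 5 of the 8 receptors then had every fMLP array above both unstimulated arrays, a pattern found in 26.8% of the tested genes, while 28.7% had every one of these arrays below.

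The 2 receptors for inflammatory chemokines did not share that direction. Cxcr2, the receptor for Cxcl1 and Cxcl2, stood at 13.32 in wild type and 13.27 in knockout cells before fMLP. After it, the values were 13.15 and 13.23 in wild type and 13.15 and 12.38 in knockout cells. Every fMLP array thus lay below both unstimulated arrays, as it did for 20.2% of the tested genes. The difference was -0.32 (95% confidence interval -0.97 to 0.33, limma adjusted p = 0.652) and -0.13 without knockout replicate 2 (limma adjusted p = 0.787). Ccr1, a receptor for Ccl3 and Ccl5, stood at 11.39 and 11.18 before and at 11.24, 11.42, 11.06 and 10.05 after fMLP, and the groups overlapped. Its difference was -0.34 (95% confidence interval -0.90 to 0.21, limma adjusted p = 0.567), and -0.09 without knockout replicate 2 (limma adjusted p = 0.670).

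C3ar1, the receptor for the complement fragment C3a, was below the array's median probe set on all 6 arrays of set 2. It stood at 7.78 and 7.50 before and at 7.68, 7.23, 7.90 and 7.42 after fMLP, with overlap between the groups. The difference was -0.08 (SE 0.20, limma adjusted p = 0.876), and 0.04 without knockout replicate 2. C3ar1 passed the signal filter through set 1, where 3 of the 4 arrays lay above the median. The other 7 receptors lay above the median on all 6 arrays of set 2.

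Receptor levels also differed between the array sets. On the unstimulated arrays, 7 of the 8 receptors had all 4 arrays of set 1 below both arrays of set 2, as did 47.6% of the tested genes, and C3ar1 had all 4 above, as did 43.3%. The gap between the sets was -2.0 for Ccr1, -1.73 for Ltb4r1, -1.41 for both Cxcr2 and Cxcr4, -1.31 for C5ar1, -1.0 for Ptafr, -0.62 for Ccrl2 and 0.93 for C3ar1. Its median over all tested genes was -0.09. Its size was below the fMLP difference for Ccrl2 (0.97) and above it for each of the other 7 receptors. Without the array set term the fMLP difference of Ccr1 was 0.99 and that of Cxcr2 was 0.62, against -0.34 and -0.32 with it, and 0 receptors were called.

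On fMLP knockout replicate 2, the receptors were low as a group. Against the mean of the other 3 fMLP arrays, the 8 deviations were -1.19 for Ccr1, -1.11 for Ltb4r1, -1.07 for Cxcr4, -1.0 for Ccrl2, -0.91 for C5ar1, -0.88 for Ptafr, -0.80 for Cxcr2 and -0.18 for C3ar1. The median was -0.96, where the median of all tested genes was -0.11 and their 5th percentile -0.99. Of all tested genes, 26% were lower there by over 0.5. Among the neutrophil markers, Csf3r stood at 11.77 on this array against 12.78 to 12.91 on the other fMLP arrays. Itgam stood at 11.79 against 12.60 to 12.80, while Ngp stood at 13.83 against 13.87 to 13.94. A low value on this array was thus not particular to the receptors. The summed signal of 8 neuronal markers reached 14.94 on this array (log2 of the sum) against 10.69 to 10.86 on the other fMLP arrays. That of the 13 neutrophil markers was 16.81 against 17.18 to 17.43. These 13 include the deleted gene Lcn2, at 14.13 and 14.16 on the wild type fMLP arrays and at 8.42 and 9.60 on the knockout ones. The neutrophil sum is thus lower on knockout arrays partly by genotype. Less neutrophil RNA per sample and less of each transcript per cell cannot be told apart in such bulk samples. Against unstimulated knockout replicate 3, the array of the same genotype and set, this array was lower in 7 of the 8 receptors, with differences such as -1.13 for Ccr1 and -0.89 for Cxcr2. Ccrl2 was the exception, at 0.29, and 38.7% of the tested genes were higher in that comparison.

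Within each genotype, the fMLP differences without knockout replicate 2 rest on 2 arrays against 1 in wild type cells and on 1 against 1 in knockout cells. For Ccrl2 the wild type mean was 1.15 above unstimulated replicate 3, and knockout replicate 1 was 1.28 above its own. For Cxcr4 these values were 0.53 and 0.51, for Ltb4r1 0.41 and 0.18, for Ptafr 0.30 and 0.19, and for C5ar1 0.21 and 0.12. They were -0.13 and -0.12 for Cxcr2 and -0.06 and -0.12 for Ccr1, while C3ar1 had -0.32 in wild type and 0.40 in knockout cells. The interaction, which sets the fMLP response of knockout cells against that of wild type cells, ran from -0.62 for Ltb4r1 to 0.19 for C3ar1 over all arrays, with 0 receptors called (0% of all tested genes by limma, with 258 genes and 0 receptors at an unadjusted p below 0.05). Without knockout replicate 1, which leaves replicate 2 alone in its group, 6 receptors were called by limma, from -1.14 for Ltb4r1 to -0.94 for Ccr1, as were 35% of the tested genes. Without knockout replicate 2 the interaction of Ccrl2 was -0.05 with a 95% confidence interval from -0.68 to 0.59. With this number of arrays, an interaction of either sign within those bounds was compatible with the data. Knockout replicate 1 is then the lone array of its group, and the spread comes from the other groups.

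**Figure D3:**
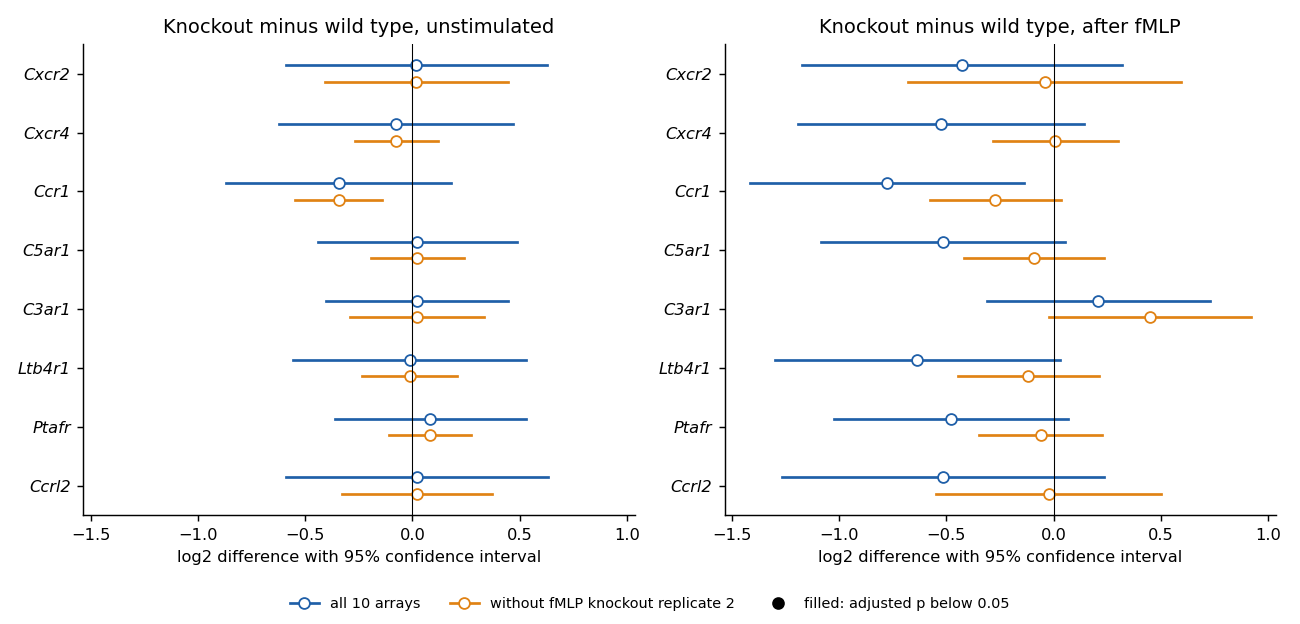
Log2 difference between lcn2 knockout and wild type cells (points) with 95% confidence intervals (lines), unstimulated on the left and after fMLP on the right; blue uses all 10 arrays and orange leaves out fMLP knockout replicate 2. No point is filled, since none had an adjusted p below 0.05 by limma, and Ccr1 is the lowest in both panels (-0.34 and -0.78 in blue).

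Loss of Lcn2 left no receptor called in unstimulated cells. The 8 differences between knockout and wild type ran from -0.34 for Ccr1 to 0.08 for Ptafr, with a median of 0.02 against 0.01 for all tested genes. By limma 0 of the 8 were called and 0 had an unadjusted p below 0.05, where 0.00711% of the tested genes, Lcn2 alone, were called and 0.533% had an unadjusted p below 0.05. The 95% confidence intervals reached from -0.87 to 0.18 for Ccr1 and from -0.36 to 0.53 for Ptafr. With this number of arrays, differences of either sign within such bounds were compatible with the data. Ccr1 was lower in the knockout in both array sets. It stood at 9.49, 9.49 and 11.39 on the wild type arrays and at 9.0, 9.16 and 11.18 on the knockout arrays, a difference of -0.41 within set 1 and -0.21 within set 2. Without fMLP knockout replicate 2, whose spread enters the common fit, the Ccr1 difference stayed at -0.34. Its interval narrowed to -0.55 to -0.14, and Ccr1 was again not called.

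After fMLP, 7 of the 8 receptors had a lower mean in knockout than in wild type cells, as did 56.7% of all tested genes, and 0 were called by limma against 0.00711% of the tested genes, with 1 receptor and 8.4% of the tested genes at an unadjusted p below 0.05. The differences ran from -0.78 for Ccr1 (SE 0.28, adjusted p = 0.416 by limma) to 0.21 for C3ar1, with a median of -0.52 against -0.05 for all tested genes. Both knockout arrays lay below both wild type arrays for Ccr1, C5ar1 and Ltb4r1, as for 26% of the tested genes. That shift went with knockout replicate 2. When it was left out the median was -0.05, Ccr1 stood at -0.27 (95% confidence interval -0.58 to 0.03) and C3ar1 at 0.45 (-0.02 to 0.92), and 0 receptors were called. When knockout replicate 1 was left out in its place, 7 receptors were called lower in the knockout by limma, from -1.28 for Ccr1 to -0.81 for Cxcr2, as were 45.5% of the tested genes in either direction. Each of these fits rests on a lone array of the fMLP knockout group and assumes that it varies like the other groups.

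Of 33 further receptor genes for chemoattractants and related signals, 22 were tested, and in the fit of all arrays 1 was called by limma, where 0.341% of all tested genes were. It was Ccr2, the receptor for the monocyte chemokine Ccl2, which stood at 10.06 and 9.0 before fMLP within set 2 and at 7.42, 7.74, 7.59 and 7.05 after. Ccr2 exceeded the filter level on both of these unstimulated arrays and on no other array, so it was tested because it was high there, and its difference (-2.08, and -1.94 without knockout replicate 2) is a description. The median of the 22 was -0.15 against -0.02 for all tested genes. Cxcr5 stood at 9.37, 8.25 and 9.18 on the first 3 fMLP arrays and exceeded the filter level on no other array. It was tested because it was high there, so its difference (1.17, and 1.56 without knockout replicate 2) is a description. The counts that follow include Cxcr5 and Ccr2, and are a description to that extent. Without knockout replicate 2, 4 of the 22 were called higher and 3 lower by limma, where 6.36% and 3.79% of all tested genes were. Ccr7, a homing receptor of lymphocytes and dendritic cells, rose by 1.93 in that fit (1.64 over all arrays, limma adjusted p = 0.0833). Hcar2, the niacin and butyrate receptor gene, rose by 1.79 (1.57 over all arrays, limma adjusted p = 0.0698). The eosinophil receptor gene Ccr3 fell by 0.82 (-1.04 over all arrays, limma adjusted p = 0.104).

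Of 17 ligand genes with a probe set, 13 were tested and 0 were called over all arrays, with the inflammatory chemokine genes Ccl3 and Ccl4 at 1.98 and 0.86 (limma adjusted p = 0.0850 and 0.0672). With knockout replicate 2 left out, 5 of the 13 rose and 2 fell (median -0.03), against the same 6.36% and 3.79% of all tested genes. In that fit Ccl3 rose by 2.11 and Ccl4 by 0.92. Ccl5, another chemokine gene, rose by 0.90 (0.79 over all arrays), and the neutrophil protease gene Ctsg fell by 1.24 (-1.49 over all arrays).

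The machinery downstream of the receptors had no call over all arrays, where 0.341% of all tested genes were called. Without knockout replicate 2, 10.1% of all tested genes were called. In that fit, 3 rose and 0 fell of 19 tested genes of receptor desensitisation and trafficking. Among these was Rgs1, a GTPase-activating protein that shortens G protein signals, at 7.50 and 7.17 before fMLP and at 8.45, 8.95 and 8.85 after, with 7.75 on knockout replicate 2. Rgs1 exceeded the filter level on those first 3 fMLP arrays and on no other array, so its difference (1.17, and 1.44 without knockout replicate 2) is a description. The count of this list includes Rgs1 and is a description to that extent. Rgs16, a related gene above the level on all 10 arrays, rose by 0.65 (0.51 over all arrays, limma adjusted p = 0.202). Of 20 tested genes of G proteins and their effectors, 0 rose and 2 fell, a share near that of all genes, among them Gng12, which fell by 0.39 (-0.56 over all arrays). A further 10 tested genes belong to the synthesis and breakdown of lipid ligands or to the regulation of these steps. Without knockout replicate 2, Pla2g4a, which frees arachidonic acid, fell by 0.63 (-0.81 over all arrays). Pafah1b1 also fell by 0.63 (-0.48 over all arrays), while Lta4h stood at 0.33 (0.19 over all arrays). The medians of these 3 lists without that array were 0.01, -0.15 and -0.06, against -0.01 for all tested genes.

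**Figure D4:**
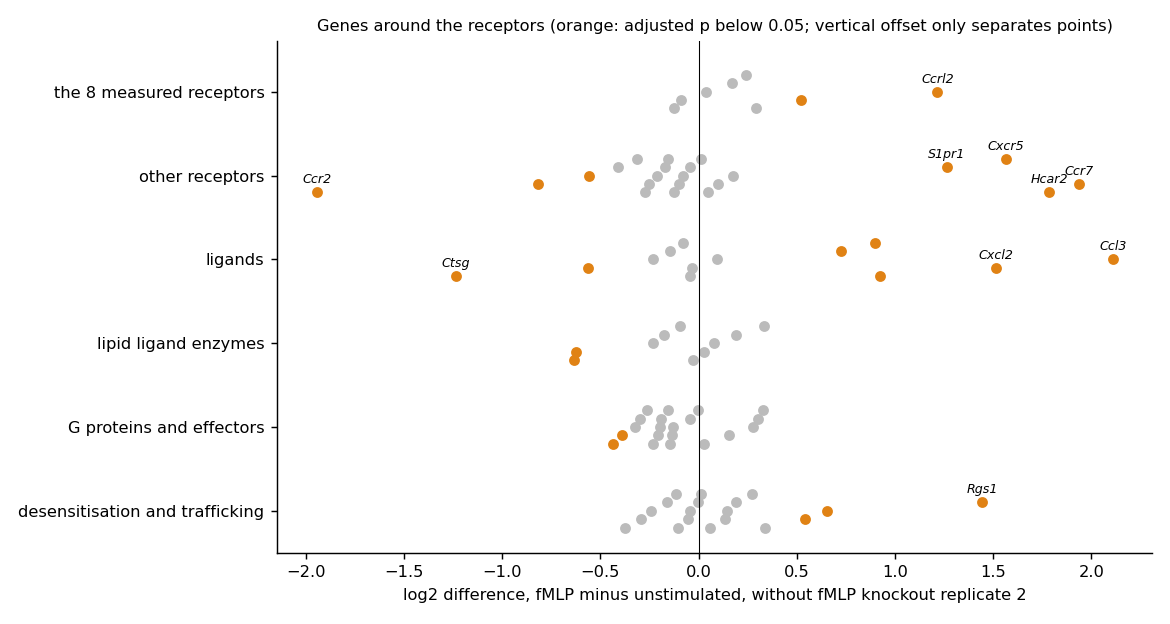
Log2 difference between fMLP and unstimulated arrays without fMLP knockout replicate 2 (horizontal axis) for the tested genes of each list (rows); orange points have an adjusted p below 0.05 by limma, and those beyond 1 in either direction are named. Ccrl2 lies at 1.22 among the receptors, Ccl3 at 2.11 among the ligands and Rgs1 at 1.44 among the desensitisation genes.

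Markers of other cell types moved with the same comparison, and their counts stand against 0.341% of all tested genes called over all arrays and 10.1% without knockout replicate 2. Of 9 monocyte markers tested, 3 were called lower over all arrays (Ccr2, Fn1 and F13a1), and their summed signal was 13.51 to 13.93 before fMLP within set 2 against 12.69 to 13.02 after fMLP and 12.00 on knockout replicate 2. Of 6 eosinophil markers, 4 fell, with a summed signal of 13.73 to 13.79 before against 11.31 to 11.69 after and 10.82 on knockout replicate 2. The 6 B cell markers had 0 calls over all arrays. Their summed signal was 13.52 to 13.93 before fMLP, 14.11 to 14.45 after it on 3 arrays and 13.35 on knockout replicate 2. Their median difference was 0.37, and 0.70 without knockout replicate 2, with Jchain going the other way at -2.10 in that fit. The other B cell markers ran there from 0.53 for Pax5 to 1.05 for Cd79b, and the 0 calls are for the fit of all arrays only. The 13 neutrophil markers had 0 calls in either fit, at 17.24 to 17.40 before, at 17.18 to 17.43 after fMLP on 3 arrays and at 16.81 on knockout replicate 2. Lcn2 is among these neutrophil markers, so their sum is lower on knockout arrays partly by genotype. Of 7 markers of immature precursors, 0 were called over all arrays. Their summed signal was 14.66 to 14.68 before fMLP, 13.81 to 14.23 after it on 3 arrays and 13.07 on knockout replicate 2. Their median difference was -0.95, and -0.75 without knockout replicate 2. In that fit the 7 precursor markers ran from -1.24 for Ctsg to -0.34 for Mki67, and the 0 calls are for the fit of all arrays only. Of 4 tested basophil and mast cell markers 2 were called lower in both fits, and of 4 tested T and NK cell markers 0 were called over all arrays and 4 were called higher without knockout replicate 2. Cpa3 of the basophil list and Ccr2 of the monocyte list passed the filter only through unstimulated replicate 3 arrays, where they were high. Epx and Prg3 of the eosinophil list passed it only through unstimulated arrays, where they were higher. Cd3g of the T cell list passed it only through fMLP arrays, where it was high. The counts of these lists include such genes and are a description to that extent. Of 7 tested neuronal markers 0 were called in either fit. Ccr2 and Ccr3 belong to the monocyte and eosinophil lists, and Ccr1 and C3ar1 are also expressed by those cells; the part of cell composition in the receptor differences was not tested.

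The receptors also differed in how alike their patterns were over the 6 arrays of set 2. Likeness was measured as the root mean square difference of log2 values after each gene was centred on its mean, with no test. C5ar1 and Ptafr were the closest pair of receptors, at 0.08, followed by C5ar1 and Ltb4r1 at 0.09, while Ccrl2 was 0.38 or more away from every other receptor. Over the 5 arrays without knockout replicate 2 the closest pair was Ltb4r1 and Ptafr, at 0.06, and Ccrl2 was 0.39 or more away. The search for the nearest genes had been meant for Fpr1 and Fpr2 and was run on the 8 measured receptors after their values had been seen. It is given for Ccrl2 and Cxcr4, the receptors called without that array. The 5 nearest genes to Ccrl2 were Rgs1 (0.14), Csrnp1 (0.16), Trib1 (0.16), Pim1 (0.17) and Niban3 (0.18), where the median gene was 0.63 away. The 5 nearest to Cxcr4 were Ubtd1 (0.04), Cuedc2 (0.04), Tapbp (0.05), Coro7 (0.06) and Cfp (0.06), with a median of 0.40. Without knockout replicate 2, 1 of the 5 was again among the nearest for each receptor, Rgs1 for Ccrl2 and Cuedc2 for Cxcr4. Rgs1 was in the search only through 3 fMLP arrays above the filter level, on which Ccrl2 was high too, so its place is a description.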

How the data were processed

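The deposited table holds log2-scale RMA signals that the authors made in Affymetrix Expression Console, per the submitters' processing notes; the log base was taken from the range of values, and whether all arrays were normalised in 1 run is not given in the sources used here. Of 35556 probe sets, 21789 name 1 gene, and 21698 of these have an entry in the RefSeq gene table. For each gene the probe set with the highest mean was used, and genes above 8.18 (the median of all values) on 2 or more arrays entered the test. Precision is limited by the number of arrays.

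A limma model (3.58.1, run under R 4.3.3) covered all 10 arrays, with group coefficients and an array set term (5 residual degrees of freedom). Array set 1 comprises arrays with an interquartile range below 2. Two-sided limma p-values received Benjamini-Hochberg adjustment over the 14070 genes, and a gene was called below 0.05. The code was tested on simulated data. The members and the gene lists were chosen with earlier results of these data known. Genes named from a list were among its 4 members with the smallest p for fMLP; genes outside that rule were named after their values were seen. Alternatives numbered 13 fixed and 3 added after seeing the data.

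Replicate numbers recur across groups. Deviations from group means correlated at 0.949, 0.929 and 0.988 for the 3 unstimulated pairs, which hold the array set, and at 0.0598 for the fMLP pairs. After the array set was taken out, unstimulated pairs 1 and 2 still correlated at 0.376 and 0.371, while the fit fixes the value of pair 3. The main fit has no term for the replicate number. The labels do not tie a number to an animal. Sequences are from RefSeq (GRCm38.p6), which had a promoter window for all 8 measured receptors. Protein sequences were not used here.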

Additional observations from a re-analysis of the deposited data

Results flagged for a closer look

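Within the 4 fMLP arrays, knockout replicate 2 lay far below the other 3 for 4 receptors, and this is what marks them here. The gap between it and the next array, as a share of the whole range of the 4 arrays, was 0.899 for Cxcr2, 0.895 for C5ar1, 0.872 for Ltb4r1 and 0.85 for Cxcr4. Chance marks about 1 in 20 such groups, and the 4 genes share the same array, so they are not separate observations. For Ccr1, Ptafr and Ccrl2 the same array was also the lowest, with shares of 0.735, 0.787 and 0.478. The neuronal signals on this array move with these values, and their part in them was not tested.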

How the results depend on the processing

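With all arrays and the array set term, 48 genes and 0 receptors were called for fMLP. Over 24 alternatives the Ccrl2 difference stayed above 0, from 0.72 to 1.59, with limma adjusted p from 0.000619 to 0.985. Many could not move it from 0.97, such as another filter, another choice of probe set or a set 1 array left out. With the array set term it is fixed by the fMLP arrays and unstimulated replicate 3, and Ccrl2 has 1 probe set. The 24 are thus not separate checks of its direction. Genes called for fMLP numbered 10 without the array set term, 0 in array set 2 alone, 77 with a variance trend, 765 with array weights, 3119 in set 2 without fMLP knockout replicate 2 (Cxcr4, Ltb4r1 and Ccrl2) and 11464 without unstimulated replicate 3 (8 receptors), the last 2 settings being chosen after seeing the data. Leaving out 1 array each gave 0 to 4055 genes and 0 to 2 receptors, with 1428 genes without fMLP knockout replicate 2 and 4055 without fMLP knockout replicate 1, which called Ccr1 and Ccrl2. The count of 0 genes (limma; 886 in set 2 alone, 695 and 740 without unstimulated replicate 3 of wild type or knockout at an unadjusted p below 0.05) came with fewer arrays.

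The replicate number as a fixed block in place of the array set, with which it could not be fitted together, called 11758 genes and 8 receptors for fMLP and 0 genes between genotypes after fMLP (1293 at an unadjusted p below 0.05 by limma), where Lcn2 no longer passed. As a random replicate block beside the array set it gave 61 genes and 0 receptors, and it changed no other call.

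Between genotypes in unstimulated cells, 1 gene was called, 0 in set 2 alone (limma; 4 at an unadjusted p below 0.05), 2 with array weights, 0 without unstimulated replicate 3 (113), and 0 to 1 leaving out single arrays. After fMLP, 1 gene was called, 0 in set 2 alone (62 at an unadjusted p below 0.05), 3 in set 2 without knockout replicate 2, 0 without unstimulated replicate 3 (634), and 0 to 6401 genes with 0 to 7 receptors leaving out single arrays. For the interaction these were 1 gene in set 2 without knockout replicate 2, and 0 to 4924 genes with 0 to 6 receptors; the highest counts all came without fMLP knockout replicate 1, which leaves knockout replicate 2 alone in its group and assumes that it varies like the others.

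Directions turned as follows, and the cause was not tested. Without the array set term the fMLP difference became 0.62 for Cxcr2, 0.99 for Ccr1 and 0.83 for C5ar1. With the fixed replicate block, or without unstimulated replicate 3, it became 1.09, 1.66 and 1.27. For C5ar1 it became 0.079 after quantile normalization and 0.17 in set 2 without knockout replicate 2, where C3ar1 became 0.039. Leaving out single arrays gave -0.015 to 0.52 for Cxcr4, -0.26 to 0.17 for C5ar1, -0.30 to 0.14 for C3ar1, -0.22 to 0.29 for Ltb4r1 and -0.18 to 0.24 for Ptafr, and for C3ar1 -0.033 to 0.45 between genotypes after fMLP and -0.053 to 0.43 for the interaction.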
